A study of Homo sapiens with 2 samples.

Results

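The 41 genes described here are the enzymes, transporters and regulators of glycolysis together with genes induced by low oxygen. They were measured in DLD1, an epithelial line from a human colorectal adenocarcinoma. The genes were chosen by symbol, as an exact match to a fixed list of 41 symbols, out of 52402 symbols in the count tables. All 41 were present. RNA sequencing was done on 1 library of control DLD1 cells, labelled wild type, and 1 library of DLD1 cells labelled HERV-R KO (knockout). HERV-R is an endogenous retrovirus of the human genome, whose envelope gene the series title names. Per the labels, cells of both libraries were transfected with vectors for Cas9 and a guide RNA and colonies were selected with hygromycin. The cells were grown in DMEM with fetal bovine serum, and no low-oxygen treatment is named. The guide, the vectors given to the control cells and the number of clones behind each library are not stated in the labels. With 1 library in each group there is no spread between replicates, so no difference below was tested and none has a p-value.

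The control library held 21881122 counts and the KO-labelled library 16406308. ERV3-1, taken here as the gene of the HERV-R envelope, was not lower in the KO-labelled library (5.80 CPM in the control against 7.62 CPM there). An RNA level does not show whether a gene was edited, so every direction below rests on the label. CPM is counts per 1000000 counts of the library, and a gene was compared where its mean over the 2 libraries was at least 1 CPM. Of 15 markers of colon epithelium, 12 reached that mean, while KRT20, CDX1 and LGALS4 did not. The epithelial markers differed between the libraries: EPCAM stood at 701 CPM (control) against 750 CPM (KO-labelled), but the keratins KRT8 (4138 and 1876 CPM), KRT18 (4967 and 1741 CPM) and KRT19 (664 and 273 CPM) were more than 2-fold lower there and CDX2 (99.4 and 298 CPM) was higher. Summed over the 15, the level was 11776 and 6047 CPM. KRT8 and KRT18 made up most of this sum in both libraries, so it mainly describes these keratins and not the markers as a set. The part of these marker differences in the results below was not tested. Among markers of other cell types, 1 of 10 fibroblast, 1 of 10 blood and immune and 0 of 8 endothelial markers reached a mean of 1 CPM. Their summed levels were at most 5.80 CPM in either library, and COL1A2, PTPRC and CDH5 were at 0 in both.

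Glycolysis splits glucose into pyruvate in the cytosol. Glucose enters through transporters of the SLC2A family, hexokinase and phosphofructokinase commit it to the pathway, the enzymes from aldolase to pyruvate kinase yield ATP, and lactate dehydrogenase returns pyruvate to lactate, which SLC16A transporters carry out of the cell. The hypoxia-inducible factors (HIF) are transcription factors whose alpha subunits, encoded by HIF1A and EPAS1, are marked for destruction by oxygen-dependent prolyl hydroxylases (EGLN genes). In low oxygen the alpha subunits accumulate, pair with ARNT and bind a short DNA motif near many glycolytic genes and near genes of angiogenesis, pH control, mitophagy and collagen processing. This control acts largely on the protein, which RNA counts do not see.

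Glycolytic enzymes and hypoxia targets outside glycolysis differed in their median log2 ratio in these libraries (0.34 and -0.36), but neither group had a single direction. Of 14 glycolytic enzymes compared, 8 had a log2 ratio above 0 and 6 below. Of 10 hypoxia targets compared, 4 were above 0 and 6 below. Among all 12644 compared genes, 7340 were above 0 and 5304 (41.9%) below, so the split of the glycolytic enzymes was near that of all genes. The enzymes of the later part of glycolysis had higher levels in the KO-labelled library, by 1.21-fold to 1.88-fold for the 7 abundant ones. The glucose transporter SLC2A1, the lactate exporter SLC16A3 and the hypoxia targets BNIP3L and NDRG1 had levels 3.06-fold to 3.56-fold lower there. Of the 41 genes, 35 reached a mean of 1 CPM. A gene was called at a log2 ratio of CPM + 1 of at least 1 or at most -1, which understates changes of genes near 1 CPM. By that rule 4 of the 35 were lower in the KO-labelled library (11.4%) and 0 were higher. Over all 12644 compared genes, 5.69% were lower and 6.78% were higher (6.95% to 7.47% and 4.30% to 4.75% with the other scalings, TMM, upper quartile and median of gene ratios). Of the 35, 13 had a log2 ratio above the median of all compared genes (0.12) and 22 had one below it.

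**Figure D1:**
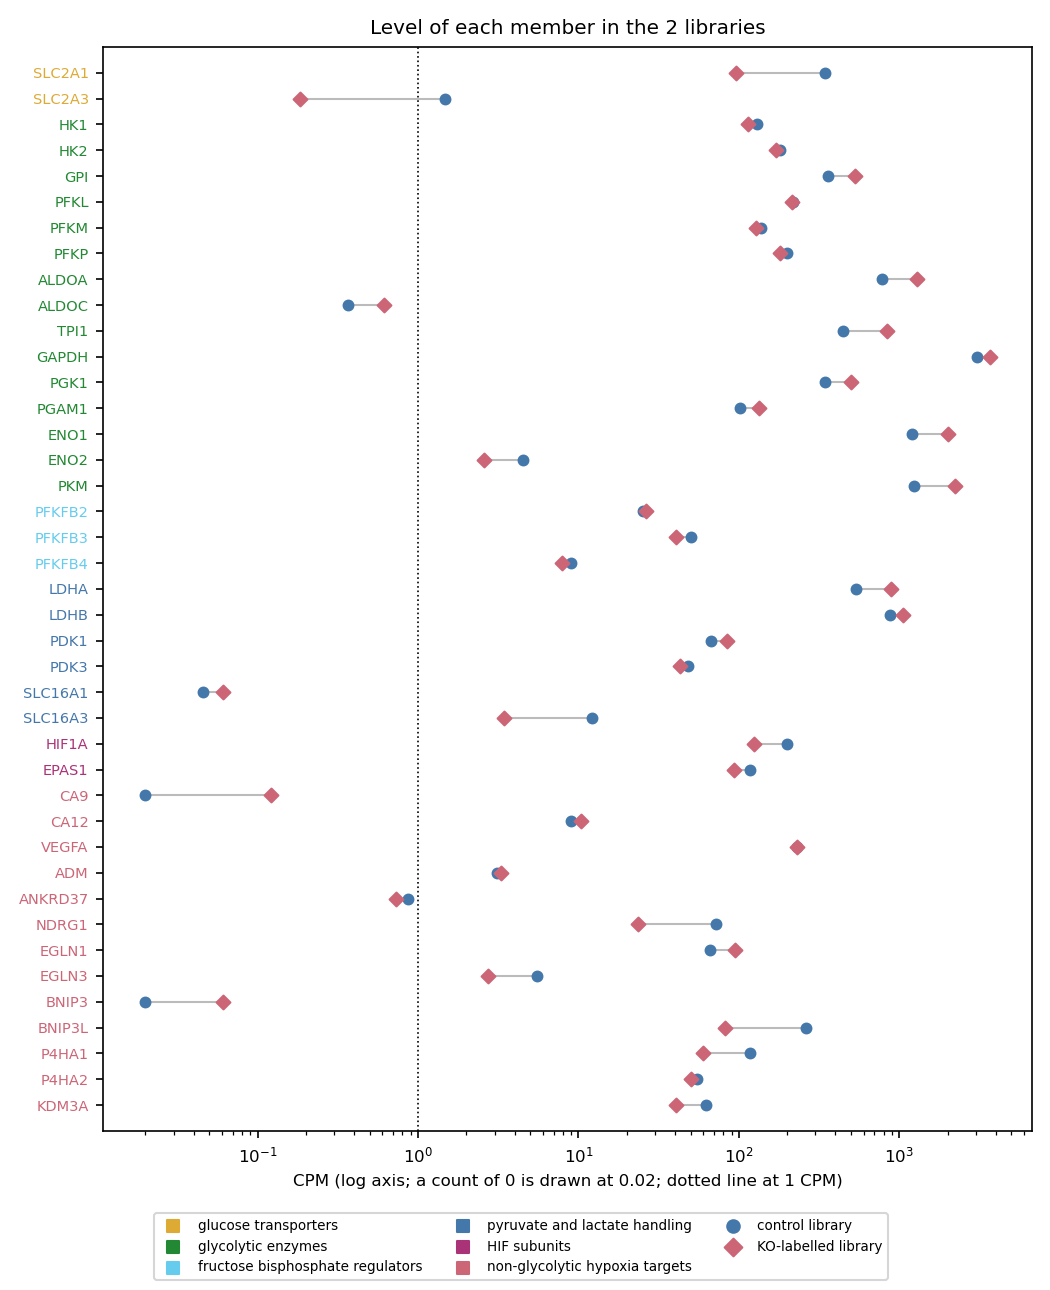
Level of each of the 41 genes in CPM (log axis) in the control library (blue circles) and the KO-labelled library (red diamonds), with symbols coloured by role; a count of 0 is drawn at 0.02 CPM. SLC2A1, SLC16A3, NDRG1 and BNIP3L are the called genes, all with the red diamond to the left, and 6 genes have a mean under 1 CPM.

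Glucose entry was represented by a single well-measured transporter. SLC2A1 (GLUT1, the basal glucose transporter of most cells; chromosome 1, 42925375 to 42959176, GRCh38) had 7511 counts in the control against 1581 in the KO-labelled library. That is 343 CPM and 96.4 CPM, a level 3.56-fold lower (95% counting interval 3.37 to 3.76). It was the lowest of the 35 by log2 ratio (-1.82), and 1.18% of all compared genes had a ratio as low or lower. In RNA from a whole culture, fewer cells with a transcript and less of it per cell cannot be told apart, here and below. SLC2A3 (GLUT3), a high-affinity transporter, had 32 counts against 3, a ratio 7.998-fold lower with an interval of 2.50 to 40.8, and its mean stayed under 1 CPM. Symbols of 3 SLC2A3 pseudogenes together held 210 and 207 counts, more than the gene itself, so its value is uncertain.

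Hexokinase and phosphofructokinase, the steps that hold glucose in the cell and commit it to glycolysis, differed little between the libraries. HK1 had 130 CPM in the control against 115 CPM in the KO-labelled library, and HK2, the inducible hexokinase, had 179 and 170 CPM. The phosphofructokinase subunits PFKL, PFKM and PFKP had 216 and 214, 137 and 128, and 199.7 and 179.6 CPM. The ratios of these 5 genes lay between 0.882 and 0.991, and that of PFKL had an interval that included 1 (0.948 to 1.04). All 5 were below the median of all compared genes on the log2 scale. GPI, the isomerase that stands between hexokinase and phosphofructokinase, was different, with 358 CPM in the control against 527 CPM in the KO-labelled library (1.47-fold higher; 1.43 to 1.52).

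From aldolase on, each abundant enzyme was higher in the KO-labelled library, although none reached 2-fold. TPI1 (triose phosphate isomerase; chromosome 12, 6867119 to 6870948) had 448 CPM in the control against 842 CPM there, 1.88-fold higher (1.83 to 1.93). PKM (pyruvate kinase, the last enzyme of the pathway) had 1231 and 2216 CPM, 1.80-fold higher (1.77 to 1.83). ENO1 (enolase) had 1204 and 2012 CPM and ALDOA (aldolase) 782 and 1295 CPM, ratios of 1.67 (1.64 to 1.698) and 1.66 (1.62 to 1.69). TPI1 had the highest log2 ratio of the 35 genes (0.91), and 91.1% of all compared genes lay at or below it.

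The other enzymes of this stretch were higher by less. PGK1, which makes ATP from bisphosphoglycerate, had 343 and 498 CPM (1.45-fold; 1.41 to 1.498). PGAM1 (phosphoglycerate mutase) had 101 and 134 CPM (1.33-fold; 1.25 to 1.41), and GAPDH, the dehydrogenase between aldolase and PGK1, 3031 and 3667 CPM (1.21-fold; 1.20 to 1.22). GAPDH is often used as a reference gene, and its log2 ratio of 0.27 lay only 0.16 above the median of all compared genes. Set per kb of exon (union of exons in GENCODE release 29), GAPDH had the highest level of the 15 enzymes in both libraries, 1363 and 1649 CPM per kb, followed by ENO1 (501 and 837) and PKM (372 and 669).

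ENO2, the neuronal enolase, had 99 counts in the control against 42 in the KO-labelled library and did not share this direction, with a level 1.77-fold lower (1.22 to 2.60), while ENO1 was higher. ALDOC, the brain aldolase, had 8 and 10 counts and was too low to compare. Summed over all 15 glycolytic enzymes, the level was 8366 CPM in the control against 12001 CPM in the KO-labelled library, or 0.837% and 1.20% of all counts, a ratio of 1.43 (1.43 to 1.44). Without GAPDH the ratio was 1.56. Divided at the aldolase step, a division made after the values had been seen, the 6 earlier enzymes had a summed ratio of 1.09 (1.07 to 1.11) and the 9 later ones 1.49 (1.48 to 1.503).

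**Figure D2:**
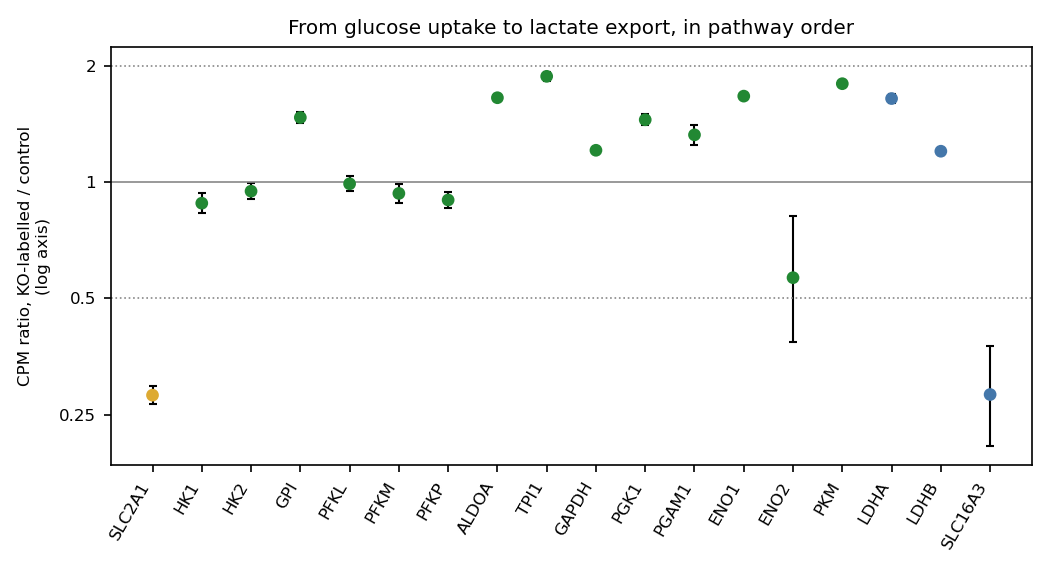
CPM ratio of the KO-labelled library to the control (log axis) for measured genes from glucose uptake to lactate export, in pathway order, coloured by role as in the plot of levels, with 95% counting intervals. The points of SLC2A1 and SLC16A3 at the ends of the pathway lie near 0.28, the hexokinases and phosphofructokinases lie near 1, and the enzymes from ALDOA to LDHB lie between 1.20 and 1.88 except ENO2.

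The PFKFB genes encode the enzymes that make and remove the fructose bisphosphate which activates phosphofructokinase, and they were near the control. PFKFB3, the isoform with the highest ratio of kinase to phosphatase activity, had 50.1 CPM in the control against 40.6 CPM in the KO-labelled library (1.24-fold lower; 1.12 to 1.36). PFKFB2 had 25.4 and 26.4 CPM and PFKFB4 9.05 and 7.86 CPM, and both intervals of the ratio included 1 (0.916 to 1.18 and 0.691 to 1.09).

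At the pyruvate branch point, both lactate dehydrogenase genes had higher levels in the KO-labelled library, without reaching the rule. LDHA, whose subunit favours the step from pyruvate to lactate, had 541 CPM in the control against 891 CPM in the KO-labelled library (1.65-fold higher; 1.61 to 1.69). LDHB, the subunit of oxidative tissues, had 877 and 1056 CPM (1.20-fold; 1.18 to 1.23). The share of LDHA in the summed counts of the pair was therefore 38.1% in the control (exact binomial interval 37.6 to 38.7) and 45.8% in the KO-labelled library (45.2 to 46.3). A share of counts within a library does not depend on how the libraries are scaled, but it is no share of molecules, since gene lengths differ.

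PDK1, a kinase that shuts pyruvate dehydrogenase and a known HIF target, had 66.9 and 84.6 CPM (1.26-fold higher; 1.17 to 1.36), and its relative PDK3 had 48.1 and 42.7 CPM. Lactate export itself was not measured, and the RNA of the 1 exporter gene that could be compared was lower. SLC16A3 (MCT4, the hypoxia-inducible lactate exporter; chromosome 17, 82228397 to 82261129) had 265 counts in the control against 56 in the KO-labelled library, 12.1 and 3.41 CPM, 3.55-fold lower (2.65 to 4.82). SLC16A1 (MCT1) stands on 2 rows of the tables that held 1 count in each library in all, and nothing can be read from it; whether its reads were counted on other rows was not tested.

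Both HIF alpha subunits had lower RNA levels in the KO-labelled library, without reaching the rule. HIF1A (chromosome 14, 61695513 to 61748259) had 199 CPM in the control against 125 CPM there, 1.59-fold lower (1.51 to 1.68). EPAS1, which encodes the other alpha subunit, had 118 and 93.7 CPM (1.25-fold lower; 1.18 to 1.34). The antisense symbols of HIF1A held 1131 counts in the control against 565 in the KO-labelled library. The labels do not say whether counting used strand, so reads of HIF1A and of its antisense RNA cannot be told apart.

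Hypoxia targets outside glycolysis ranged from 3.22-fold lower to 1.42-fold higher. BNIP3L (NIX, a receptor that marks mitochondria for mitophagy; chromosome 8, 26382898 to 26505636) had 5743 counts in the control against 1336 in the KO-labelled library. That is 262 and 81.4 CPM, 3.22-fold lower (3.04 to 3.42). Its paralog BNIP3 held 0 counts in the control, which allows up to 0.137 CPM, and 1 count in the KO-labelled library, so the pair was represented by BNIP3L alone. NDRG1, an N-myc downstream-regulated gene that is also induced by low oxygen, had 71.8 CPM in the control against 23.5 CPM in the KO-labelled library (3.06-fold lower; 2.74 to 3.43).

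Of the measured members that were not called, P4HA1 came nearest to the rule. This catalytic subunit of collagen prolyl hydroxylase had 117 CPM in the control against 59.7 CPM in the KO-labelled library (1.96-fold lower; 1.82 to 2.11). Its log2 ratio of -0.96 is just outside the rule with library totals and lies between -1.08 and -1.12 with the other scalings, where it passes. The related P4HA2 had 54.5 and 50.5 CPM, with an interval of the ratio that included 1 (0.847 to 1.01). KDM3A, a histone demethylase induced by HIF, had 61.97 and 40.4 CPM (1.53-fold lower; 1.396 to 1.69).

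The oxygen sensors among the members, EGLN3 and EGLN1, went opposite ways. EGLN3, a prolyl hydroxylase gene strongly induced through HIF, had 120 counts in the control against 45 in the KO-labelled library (1.999-fold lower without a pseudocount; 1.41 to 2.88). EGLN1 (PHD2), the main HIF prolyl hydroxylase and also a HIF target, had 66.4 CPM in the control against 94.0 CPM in the KO-labelled library (1.42-fold higher; 1.32 to 1.52).

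The secreted and surface targets differed little. VEGFA, the angiogenic growth factor, had 229 and 232 CPM, a ratio of 1.01 (0.969 to 1.05). ADM (adrenomedullin) had 3.11 and 3.29 CPM, and CA12, a membrane carbonic anhydrase, 9.00 and 10.4 CPM, both with intervals of the ratio that included 1 (0.727 to 1.54 and 0.938 to 1.43). The signs of VEGFA, ADM and PFKFB2 turn negative with each of the other scalings, which move log2 ratios without a pseudocount by -0.12 to -0.16, and ratios of CPM + 1 by less in genes of low level. CA9, a carbonic anhydrase widely used as a hypoxia marker, had 0 counts in the control against 2 in the KO-labelled library, under the 3 counts that a count of 0 allows. ANKRD37 had 19 and 12 counts and a mean under 1 CPM. At this depth neither shows a difference.

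Set side by side, the glycolytic enzymes and the hypoxia targets outside glycolysis differed in their medians. Of 15 glycolytic enzymes, 14 were measured, with log2 ratios from -0.63 to 0.91 and a median of 0.34. Of these, 8 lay above the median of all compared genes and 6 below it, and 0 passed the rule in either direction. Of 13 hypoxia targets outside glycolysis, 10 were measured, with log2 ratios from -1.68 to 0.496 and a median of -0.36. There 2 lay above the median of all genes and 8 below it, and 2 were called lower. Over all compared genes 5.69% were lower and 6.78% higher, and counts of called genes this small do not tell the 2 groups apart. The medians differed by 0.70 on the log2 scale, and other scalings left this difference at 0.69. The ranges of the 2 groups overlapped, since EGLN1 and CA12 were above the hexokinases and ENO2 was below P4HA2. The median of hypoxia targets rests on few genes: it was -0.11 with no filter on low values, when CA9, ANKRD37 and BNIP3 enter, and the difference was then 0.38. Members share their libraries and are not replicates, so these medians describe the 2 libraries.

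**Figure D3:**
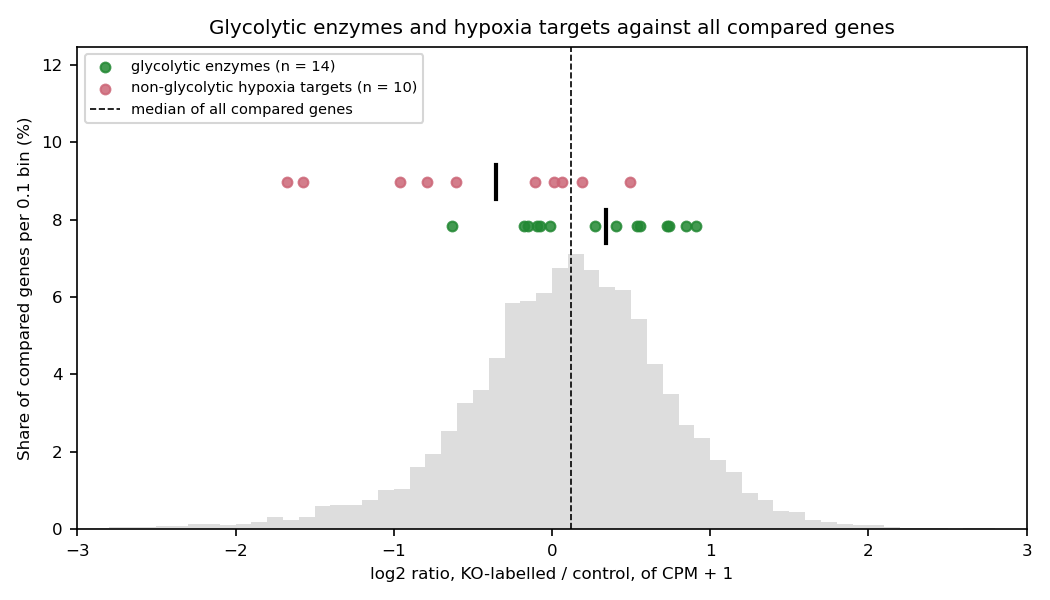
log2 ratio of CPM + 1 (KO-labelled over control) for 14 glycolytic enzymes (green) and 10 hypoxia targets outside glycolysis (red), with vertical bars at their medians, above the distribution of all 12644 compared genes in grey (axis limited to -3 to 3). The green median lies at 0.34 and the red at -0.36, on either side of the dashed median of all genes at 0.12.

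Pairs of members that share a step or family were compared within each library, which removes the scaling. Among pairs with both genes at a mean of at least 1 CPM, the largest departures were in ENO2 against ENO1, EGLN3 against EGLN1 and P4HA2 against P4HA1. ENO2 made up 0.374% of the enolase counts in the control against 0.127% in the KO-labelled library, a ratio of ratios 2.95-fold lower (2.06 to 4.24). EGLN3 made up 7.63% of the counts of its pair in the control (6.37 to 9.05) and 2.83% in the KO-labelled library (2.07 to 3.77). P4HA2 made up 31.8% and 45.8% of its pair, and EPAS1 37.2% and 42.9% of the HIF alpha counts. PDK1 made up 58.2% and 66.5% of the PDK1 and PDK3 counts. The hexokinases kept closer proportions, with HK2 at 57.99% and 59.7% (ratio of ratios 1.07; 0.996 to 1.16). PFKP made up 48.0% and 45.6% of its counts with PFKL.

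**Figure D4:**
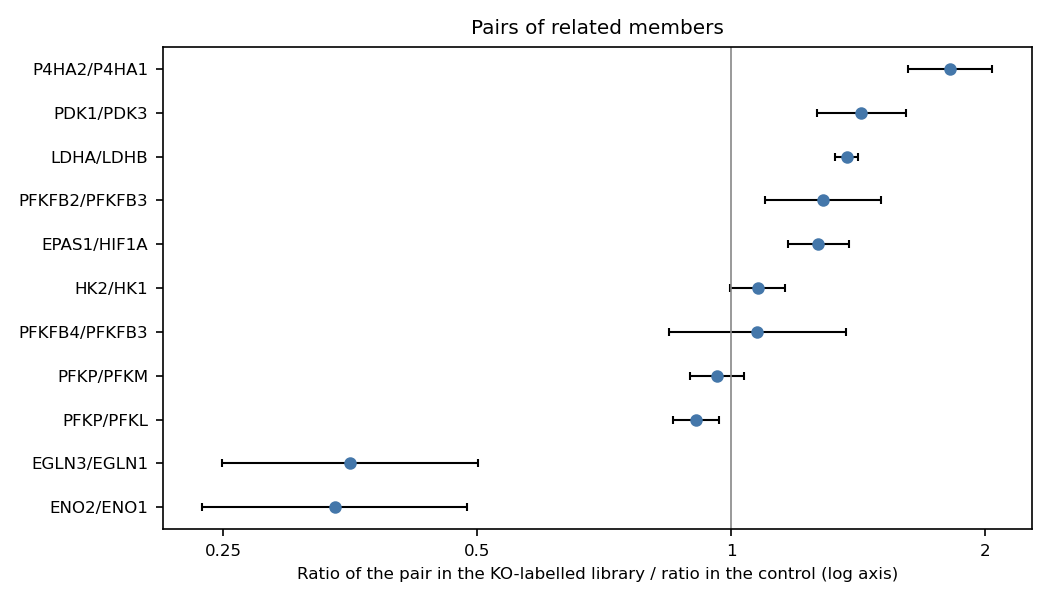
For 11 pairs of related genes with both at a mean of at least 1 CPM, the ratio of the first to the second gene in the KO-labelled library divided by the same ratio in the control (log axis), with 95% counting intervals from a normal approximation. ENO2/ENO1 and EGLN3/EGLN1 lie lowest, P4HA2/P4HA1 highest, and the intervals of HK2/HK1, PFKP/PFKM and PFKFB4/PFKFB3 include 1.

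The HIF motif was looked up next, as a description of the promoters and not of binding. Promoters were read from RefSeq sequences (GRCh38.p14), which give 300 bases for each listed start, 250 before it and 50 after. The core of the hypoxia response element was searched as ACGTG and as GCGTG on both strands. ACGTG overlaps the E-box CACGTG, which MYC and other factors bind. Of the 41 genes, 35 had a listed promoter, 63 in all. The 6 without one were SLC2A3, PFKFB2, SLC16A1, VEGFA, NDRG1 and BNIP3L. The called hypoxia targets NDRG1 and BNIP3L thus have no part in the counts that follow. A core was found in 68.3% of these 63 and in 48.4% of all 35116 promoters. Counted by gene, with a core in any listed promoter, it was found in 32 of 35 members (91.4%) and in 52.4% of all genes. The 2 roles take opposite orders in these counts: glycolytic enzymes held it in 20 of 34 promoters (58.8%) but in 14 of 15 genes (93.3%), and hypoxia targets outside glycolysis in 9 of 11 promoters (81.8%) and 8 of 10 genes (80%). A gene with more listed starts has more windows in which a core can occur. GC content, which bears on the count of these motifs, had a median of 68.7% in the members' promoters and 58.7% in all. The following sites are shown because they come from members on both sides of the comparison, read 5′ to 3′ on the strand of the gene, with each core in capitals (CACGT and CACGC are the cores on the opposite strand). The coordinates are those of GRCh38.p14. No called gene is among those shown, and LDHA, of the pyruvate and lactate genes, belongs to neither side of the comparison.
GAPDH, chr12:6535171-6535200, plus strand: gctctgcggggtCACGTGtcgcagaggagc
PGK1, chrX:78104034-78104062, plus strand: gcgGCGTGccggACGTGacaaacggaagc
GPI, chr19:34364818-34364846, plus strand: acactgcctgtaACGTGgaaggtgttcga
ALDOA, chr16:30064089-30064117, plus strand: ccttcccctccaCACGTcaacgattctat
LDHA, chr11:18394464-18394493, plus strand: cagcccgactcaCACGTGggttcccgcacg
P4HA1, chr10:73096936-73096964, minus strand: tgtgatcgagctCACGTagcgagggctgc
KDM3A, chr2:86441333-86441361, plus strand: ccgggaggctgtGCGTGtcttgtgagagc
EGLN1, chr1:231422288-231422312, minus strand: gggccgtggtgtACGTGcagagcgc

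The genes shown have the core before the first listed start and were picked. That some were higher (GPI, ALDOA, LDHA, EGLN1) and some lower (P4HA1, KDM3A) in the KO-labelled library is therefore no result about the motif. In GAPDH and LDHA the core is part of a full E-box. The 250 bases before the first listed start held no core in 12 of the 35 genes. Of these, SLC2A1, SLC16A3, TPI1, PKM, HK1, PFKM, PFKP, LDHB and PDK1 had a core elsewhere in their listed windows. The remaining 3 genes, EGLN3, P4HA2 and PGAM1, had none in any. No match says only that these letters are not in this window, and a match is not a bound site.

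Other hypoxia-inducible genes were taken from a list of 46 with no member among them. Of 38 measured, 6 were lower, 2 higher and 30 between the limits, and the median log2 ratio was -0.34. Over all compared genes 5.69% were lower and 6.78% higher. The middle values of the list were -0.48 and -0.20, so 1 more gene would move the median to either. The lowest were MAFF, a small MAF transcription factor, at 33.3 CPM in the control against 8.23 CPM in the KO-labelled library, ANGPTL4, an inhibitor of lipoprotein lipase, at 26.3 and 8.66 CPM, and MXI1, a MYC antagonist, at 135 and 48.6 CPM. CCNG2, BHLHE40 and TMEM45B were the other lower genes. The 2 higher ones were GYS1, muscle-type glycogen synthase, at 48.9 and 112 CPM (2.29-fold; 2.13 to 2.47) and SAP30, a subunit of a histone deacetylase complex, at 7.63 and 17.9 CPM. With the other scalings 8 or 9 genes of the list were lower, where 6.95% to 7.47% of all compared genes were, and SAP30 stayed past the rule with TMM only (1.02; 0.998 and 0.98 with the others). DDIT4, an inhibitor of mTOR signalling and the most abundant gene of this list, had 1328 and 764 CPM.

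Of 18 measured regulators of HIF, 1 was higher, 0 were lower and 17 lay between, near the shares of all compared genes (6.78% higher and 5.69% lower). Their median of 0.10 turned to between -0.02 and -0.06 with the other scalings. EP300, the coactivator that HIF recruits, was the higher gene (55.6 and 116 CPM; 2.08-fold), but its log2 ratio of 1.04 was 0.89 to 0.92 with the other scalings, under the 2-fold rule. VHL, which targets hydroxylated HIF for destruction, had 73.4 and 118 CPM, ARNT, the shared partner of the alpha subunits, 57.04 and 46.8 CPM, and HIF1AN, the asparaginyl hydroxylase of HIF, 108 and 77.5 CPM.

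Of 13 measured isozymes, transporters and regulators of glycolysis outside the 41 genes, 5 were lower, 1 was higher and 7 lay between, against 5.69% lower and 6.78% higher over all compared genes. The transporters SLC2A10 (6.76 and 0.366 CPM) and SLC16A4 (14.9 and 1.89 CPM) and the mitochondrial enzyme LDHD (2.38 and 0.183 CPM) were the lowest, and SLC2A12 and PDK2 were also lower. SLC2A10 had 148 counts in the control against 6 in the KO-labelled library, and LDHD 52 against 3, the counts that a count of 0 allows. Both reached a mean of 1 CPM only through the control library, where they were high, which limits the count of lower genes. TIGAR, a phosphatase that opposes phosphofructokinase, was higher (22.3 and 48.03 CPM; 2.15-fold), with a log2 ratio of 1.07 that was 0.92 to 0.95, under the rule, with the other scalings. BSG (basigin), the chaperone of SLC16A transporters at the membrane, had 758 and 741 CPM.

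Among 11 measured glucose-sensing and glycolysis-regulating factors, 2 were lower and 1 was higher, beside 5.69% and 6.78% of all compared genes. TXNIP, which restrains glucose uptake and is induced by glucose through MondoA (MLXIP), had 1176 CPM in the control against 383 CPM in the KO-labelled library (3.07-fold lower). FOXK1 had 248 and 117 CPM. PPARGC1A, a coactivator of mitochondrial genes, was higher from a low level (2.19 and 8.53 CPM), and MYC, which activates many glycolytic genes, had 154 and 260 CPM (1.69-fold; 1.61 to 1.77).

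The pentose phosphate genes (8 measured), the pyruvate dehydrogenase and pyruvate carrier genes (10), the citrate cycle genes (18), gluconeogenic genes (4) and hexosamine and polyol genes (10) each had 0 members past the rule. Lists of this size hold few or no such genes at the shares of all compared genes (5.69% lower and 6.78% higher). Their medians were -0.12, 0.24, 0.11, 0.22 and -0.24, and that of the citrate cycle lay just below 0 with the other scalings. PGM3 of the last list was then lower (-0.90, and -1.02 to -1.06 with those scalings). The 2 most abundant of each stood at 830 and 591 CPM (TKT) and 249.9 and 329 CPM (TALDO1), 183 and 214 CPM (DLD) and 121 and 240 CPM (DLAT), 365 and 401 CPM (CS) and 364 and 399 CPM (MDH2), 238 and 251 CPM (PCK2) and 49.4 and 64.0 CPM (G6PC3), and 713 and 475 CPM (GFPT1) and 197 and 148 CPM (MGEA5). DLAT, a pyruvate dehydrogenase subunit, came closest to the rule, with a log2 ratio of 0.97.

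Of 12 measured glycogen genes, 1 was higher, GYS1, which also stands among the hypoxia targets. Of 8 measured carbonic anhydrases and acid-base transporters, 1 was higher, the anion exchanger SLC4A2 (94.9 and 218 CPM). Of 10 measured relatives of VEGFA and of the hydroxylase, demethylase and NDRG genes, 1 was higher, KDM3B (72.1 and 146 CPM), a relative of KDM3A, whose log2 ratio of 1.004 was 0.85 to 0.88 with the other scalings. Of 11 measured mitophagy and autophagy genes, not all of them partners of BNIP3L, 3 were lower and 0 higher. The shares over all compared genes, which serve for each list of this paragraph, are 5.69% lower and 6.78% higher. OPTN, a cargo receptor, had 117 and 37.9 CPM (3.10-fold lower), GABARAPL1, an autophagosome protein of the kind BNIP3L binds, 88.3 and 40.8 CPM, and the autophagy kinase ULK1 106 and 49.7 CPM.

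**Figure D5:**
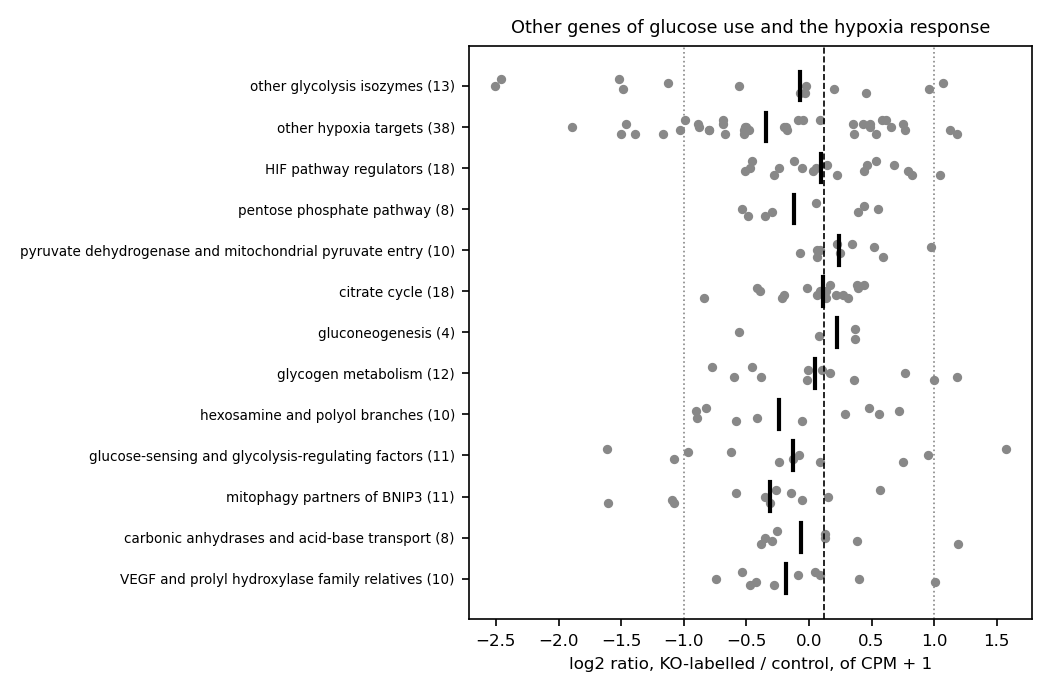
log2 ratio of CPM + 1 (KO-labelled over control) of each measured gene (points) in 13 lists of related genes, with the number measured in brackets, a bar at each median, a dashed line at the median of all compared genes (0.12) and dotted lines at the called ratios of -1 and 1. The median of the other hypoxia targets is -0.34 and that of the mitophagy and autophagy genes (drawn as mitophagy partners of BNIP3) -0.31. The lowest single gene is SLC2A10 (-2.51) among the glycolysis isozymes.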

How the data were processed

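Per the labels' protocols, Trizol RNA went into libraries from a directional kit. Reads were aligned with TopHat to GRCh38, per the submitters' processing notes. The counting program, the annotation and the use of strand are not stated there. The authors deposited raw counts per row for 1 library in each group. Rows of 1 symbol were summed and scaled by the library total to CPM. Where the mean reached 1 CPM, genes were compared by the log2 ratio with a pseudocount of 1 CPM. Folds of single genes use no pseudocount and have exact 95% intervals, conditional on the summed count. Intervals and the floor of 3 counts cover counting error only, and duplicate reads make them too narrow. Totals were 21881122 counts (control) and 16406308 (KO-labelled).

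Scalings by TMM and upper quartile used edgeR 4.0.16 in R 4.3.3, and other steps Python 3.11.15. The procedure was run on simulated data that held counting error only, so that run cannot show how far single libraries differ without replicates. Genes named are all 41 members, and from each other list up to 3 called genes in each direction with the largest change, or the 2 most abundant where none was called; other genes were chosen after their values were seen. Members and lists were chosen with earlier results of these data known. One gene of the list of other hypoxia targets is not reported here and was left out of that list after its values were seen, which moves the list's count and median. Symbols of pseudogenes of 17 members held 324 and 440 counts in all.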

Additional observations from a re-analysis of the deposited data

How the results depend on the processing

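No paired analysis was possible because each group has 1 library, and for the same reason no library could be left out. SLC2A1, SLC16A3, NDRG1 and BNIP3L were lower under each alternative with the 2-fold rule, P4HA1 joined them with each of the other scalings and SLC2A3 with no filter. The share of all genes lower ran from 2.93% (pseudocount of 5) to 7.47% (median of gene ratios) over these alternatives, and was 3.54% with no filter. At 1.5-fold 9 members were lower (13.2% of all genes) and 5 higher (20.3%). At 3-fold 2 were lower (1.81% of all genes) and 0 higher (0.933%). The median of glycolytic enzymes was 0.22 with TMM, 0.198 with the upper quartile, 0.18 with the median of gene ratios, 0.40 with a minimum mean of 5 CPM and 0.27 with no filter. That of hypoxia targets was -0.495 with the upper quartile, -0.51 with the median of gene ratios and -0.11 with no filter, where the difference between the medians was 0.38. Over all genes, 857 were higher and 719 lower; 544 were higher with the median of gene ratios (945 lower), 601 with TMM (879 lower) and 574 with the upper quartile (917 lower). A pseudocount of 5 gave 426 and 371, the 1.5-fold rule 2567 and 1674, and the 3-fold rule 118 and 229. CA9, BNIP3, ALDOC and ANKRD37 held at most 19 counts in either library, which limits their precision.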
